A study of Mus musculus with 50 samples.

Results

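Mammary gland tumors of mice that were chronically injected with insulin glargine were compared directly with tumors of mice that received insulin X10. The comparison takes the 10 glargine and the 10 X10 tumors out of 50 tumors, chosen by their treatment labels, and 1 pair of compounds was therefore compared. The remaining 30 tumors came from mice given insulin, IGF1 or vehicle, with 10 tumors in each group (the sample titles of the vehicle tumors read untreated). All mice were female p53R270H/+WAPCre animals, which carry a mutant p53 allele whose expression is started by a Cre recombinase under the milk protein promoter WAP, so that the mutation is switched on in mammary epithelium. They were 8 weeks old at the start and received subcutaneous injections every other day. Tumors were collected once they measured 1 cm3, and the final injection preceded collection by 24 h. The study had chosen EMT-like tumors with a latency close to the median of their treatment group, so these 10 tumors do not sample each treatment at random. The injected doses are not given in the sources used here.

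Glargine and X10 are both insulins with an altered amino acid sequence. In X10, a histidine of the B chain is replaced by aspartic acid, which gives a stronger binding to the IGF1 receptor. In glargine, the last residue of the A chain is a glycine and a pair of arginines extends the B chain, and in the circulation these arginines are largely removed. The comparison therefore sets an analogue known for mitogenic signaling through IGF1R against one with a weaker effect on this receptor.

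Library sizes, that is the numbers of reads to which the RPKM values (reads per kilobase of gene) were scaled, recovered from the steps of these values, were between 26.6 and 46.6 M in the glargine tumors and between 29.6 and 50.4 M in the X10 tumors. Their means were 39.7 ± 6.32 M (SD, n = 10) and 37.5 ± 6.85 M (SD, n = 10), a difference of 2.12 M reads (95% interval -4.08 to 8.32; two-sided permutation test, p = 0.477). Reads summed over the recovered genes came to 0.988 to 1.08 times this size over the 50 tumors, so the library size is a scaling value and not a full count of reads. The mammary epithelium markers, among them Krt8, Krt14 and Elf5, had a summed level of 190.2 to 679 RPKM in the glargine tumors and of 96.7 to 4321 RPKM in the X10 tumors. The tumor X10_105 (treatment and mouse number) stood apart, since immunoglobulin genes held 13.9% of its summed RPKM, against a median of 0.0204% in the X10 group and at most 0.398% in any glargine tumor. In bulk tumors, fewer cells of a type and less RNA per cell cannot be told apart.

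Processed pseudogenes made up most of what differed between the analogues. A gene was tested if its RPKM averaged 0.5 or more across the 50 tumors, which left 16733 genes, and 298 of these passed an adjusted p-value of 0.05 (1.78% of the tested genes; limma on log2(RPKM + 0.5), Benjamini-Hochberg). Among the called genes, 290 were higher in the glargine tumors (1.73%) and 8 were higher in the X10 tumors (0.0478%). A total of 262 of the 298 genes (87.9%) are annotated as processed pseudogenes, the intronless copies of messenger RNAs that were written back into the genome. At an unadjusted p-value under 0.05, 1605 genes were higher in glargine (9.59%) and 344 were higher in X10 (2.06%). Single tumors moved the number of calls, from 76 without X10_111 to 577 without X10_107, with 460 calls without the immunoglobulin-rich X10_105.

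Among 1930 tested processed pseudogenes, 261 were called higher in glargine and 1, Gm8814, was called higher in X10. Gm8814 reached the minimum level only through the X10 tumors (mean of 0.998 RPKM, against 0.486 RPKM in the other 40 tumors), and its call was lost in 16 of 20 fits that left out 1 tumor. Their median difference was 0.41 on the log2 scale, and 1743 of them (90.3%) had a higher mean in the glargine tumors. The 13520 protein-coding genes had a median difference of 0.01, and 18 of them were called higher in glargine and 3 higher in X10. Over all tested genes the median difference was 0.04. Small nuclear RNA genes had a median difference of 0.33 over 42 genes, none of which passed the adjusted threshold. Unprocessed pseudogenes, which arise from gene duplication, had a median of 0.24 over 66 genes with 1 call.

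The sequences below set such copies beside the genes they were made from, here called their parents. Shown are 90 bases of coding sequence, 5′ to 3′, of 3 called processed pseudogenes, taken from those with the smallest p-values and an alignment to the parent without a gap; bases that differ within a pair are in capitals. They were read from the GENCODE M21 transcripts (build GRCm38).
Atp5l: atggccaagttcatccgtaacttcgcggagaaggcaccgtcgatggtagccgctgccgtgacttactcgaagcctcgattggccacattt
Gm10221: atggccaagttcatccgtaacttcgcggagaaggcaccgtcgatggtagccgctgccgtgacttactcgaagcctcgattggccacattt
Atp5o: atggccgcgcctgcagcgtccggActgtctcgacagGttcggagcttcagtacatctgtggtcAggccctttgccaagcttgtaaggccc
Gm5436: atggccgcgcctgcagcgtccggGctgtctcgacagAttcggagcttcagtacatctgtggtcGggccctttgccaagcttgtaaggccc
Sdccag3: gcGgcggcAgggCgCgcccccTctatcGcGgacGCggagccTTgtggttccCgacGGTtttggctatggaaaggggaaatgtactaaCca
Gm14828: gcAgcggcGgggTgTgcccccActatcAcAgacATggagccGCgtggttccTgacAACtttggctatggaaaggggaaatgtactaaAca

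The stretch of Atp5l (chr9:44920610-44920661 in exon 1 and chr9:44914774-44914811 in exon 2, minus strand) is split by an intron, whereas the same 90 bases of Gm10221 lie in 1 exon at chr5:24581773-24581862 on the minus strand. Along the full 309 bases of Gm10221 the identity was 100%. Atp5o and Gm5436 (chr12:84258884-84258973, minus strand) differed at 3 of the 90 bases, with 97.0% identity over 643 bases. Sdccag3, also named Entr1, and Gm14828 (chrX:100337534-100337623, plus strand) differed at 16 of the 90 bases, with 90.7% identity over 1133 bases. The authors aligned reads with TopHat2, passed what remained unaligned to Bowtie2 in local mode and counted both together. How these steps divided reads between a parent and its copy was not tested, so the values of both members of a pair are uncertain.

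Gm14828 had 1.25, 1.41 and 1.79 RPKM as the lowest, median and highest value in the glargine tumors, and 0.675, 0.796 and 1.19 RPKM in the X10 tumors. All 10 glargine tumors were above all 10 X10 tumors, with a log2 difference of 0.54 ± 0.10 (SE) and an adjusted p-value of 0.00953 (limma). Its parent Sdccag3, an endosomal sorting protein, had 44.1, 53.5 and 72.7 RPKM in glargine and 42.5, 50.9 and 67.9 RPKM in X10, and these ranges overlapped almost entirely. The difference of the parent was 0.14 (95% interval -0.06 to 0.34, adjusted p = 0.693).

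Gm13509 is a copy of Ap2m1, which encodes a subunit of the clathrin adaptor complex. The copy ranged from 39.7 over a median of 52.2 to 58.8 RPKM in the glargine tumors and from 19.0 over 30.7 to 38.4 RPKM in the X10 tumors, so the groups did not overlap. It was 1.73-fold higher in glargine (log2 0.79 ± 0.15 SE, adjusted p = 0.00988). For Ap2m1 itself the range was 255 to 355 RPKM in glargine and 196 to 328 RPKM in X10, with a log2 difference of 0.15 (95% interval -0.12 to 0.41).

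Gm15285, a copy of the electron transfer flavoprotein gene Etfa, had 11.7, 16.2 and 19.6 RPKM in glargine against 5.73, 9.57 and 11.3 RPKM in X10, again without overlap (log2 0.74 ± 0.15 SE, adjusted p = 0.00988). Mean levels of Etfa were 88.9 ± 12.1 RPKM (SD, n = 10) in glargine and 88.9 ± 25.5 RPKM (SD, n = 10) in X10. In 9 genes of the whole table every glargine tumor was above every X10 tumor, and all 9 were processed pseudogenes; no gene showed the opposite order.

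Both ATP synthase copies shown above were higher in glargine, by 2.10-fold for Gm10221 and 2.02-fold for Gm5436, and their groups overlapped. Gm10221 had 109, 146 and 209.6 RPKM in the glargine tumors and 31.7, 76.2 and 132.5 RPKM in the X10 tumors, with 7 glargine tumors above all X10 tumors. The log2 difference was 1.07 ± 0.18 (SE), the adjusted p-value 0.00667. For Atp5l, with the identical coding sequence, the values were 77.3, 123 and 149 RPKM and 50.0, 91.5 and 125.3 RPKM (log2 0.42, 95% interval 0.11 to 0.73, adjusted p = 0.168).

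Gm5436 had 41.3, 56.6 and 78.1 RPKM in glargine and 17.6, 27.1 and 46.4 RPKM in X10 (log2 1.02 ± 0.19 SE, adjusted p = 0.00953). Its parent Atp5o differed by 0.16 (95% interval -0.10 to 0.43). The remaining processed pseudogenes with the smallest p-values were higher in glargine as well. Gm14032 (parent Ctsb, a lysosomal protease) was higher by 0.93, Gm6954 (parent Anapc13, a subunit of the anaphase-promoting complex) by 1.08, Gm11229 (parent Ndufa10, a subunit of complex I) by 0.88 and Gm10349 (parent Nutf2, a nuclear transport factor) by 0.96 on the log2 scale, with adjusted p-values of 0.00953 or 0.00988. Gm20563, which has no entry in GENCODE M21, was higher by 1.01 (adjusted p = 0.00990). For Gm5436, Gm14032 and Gm11229 the lowest 6 X10 values were those of the tumors X10_111 to X10_120, and the part of this run of mouse numbers in these differences was not tested.

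**Figure D1:**
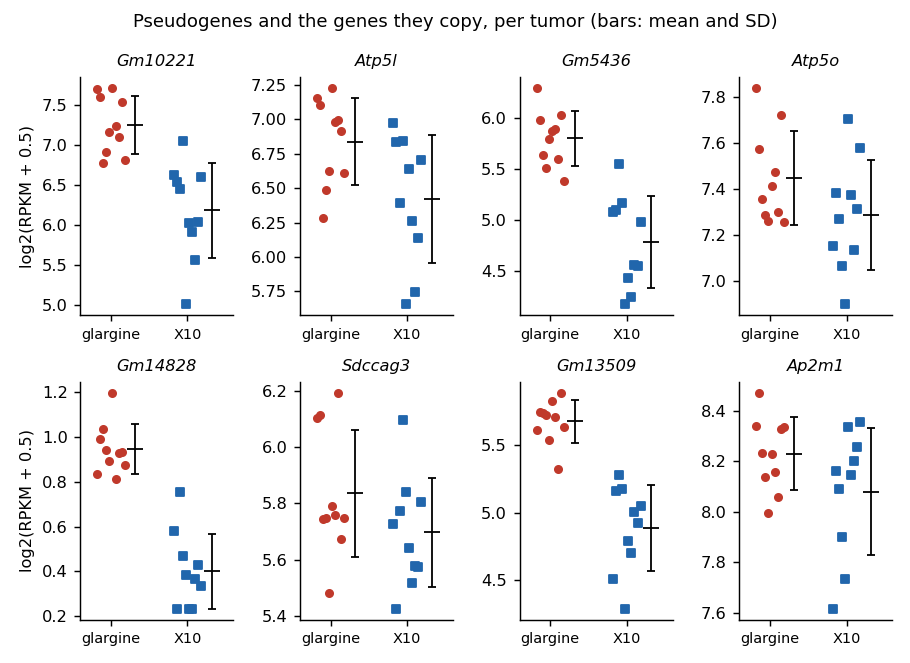
Values of 4 processed pseudogenes and their parents as log2(RPKM + 0.5), with a circle for each of the 10 glargine tumors, a square for each of the 10 X10 tumors, and bars for the mean and SD; every panel has its own scale. Gm14828 and Gm13509 are separated between the groups, while Sdccag3, Ap2m1 and Atp5o overlap widely.

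Pairing every processed pseudogene with its closest protein-coding transcript gave 1886 pairs with 960 parents (an alignment over at least 50% of the pseudogene). The median difference was 0.42 for the pseudogenes and -0.02 for the parents. Of the 1886 pseudogenes, 1704 had a higher difference than their own parent, whereas 435 of the 960 parents were themselves above 0 and 3 were called. These pairs are no independent observations, since many pseudogenes share a parent. The 262 called pseudogenes had a median difference of 0.74, and their 211 parents one of 0.08, with 1 parent called; the first value follows from the choice of called genes.

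The direction held at each level of similarity. Pseudogenes with an identity under 90% had a median difference of 0.38 (224 pairs), those from 95% to under 98% one of 0.36 (541 pairs), and those with at least 99% one of 0.50 (399 pairs). In the class with the highest identity, 395 of 399 were higher in glargine. Low levels gave smaller differences on the log2(RPKM + 0.5) scale, with a median of 0.23 for the 610 pseudogenes under 2 RPKM and of 0.59 for the 163 pseudogenes with at least 50 RPKM.

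**Figure D2:**
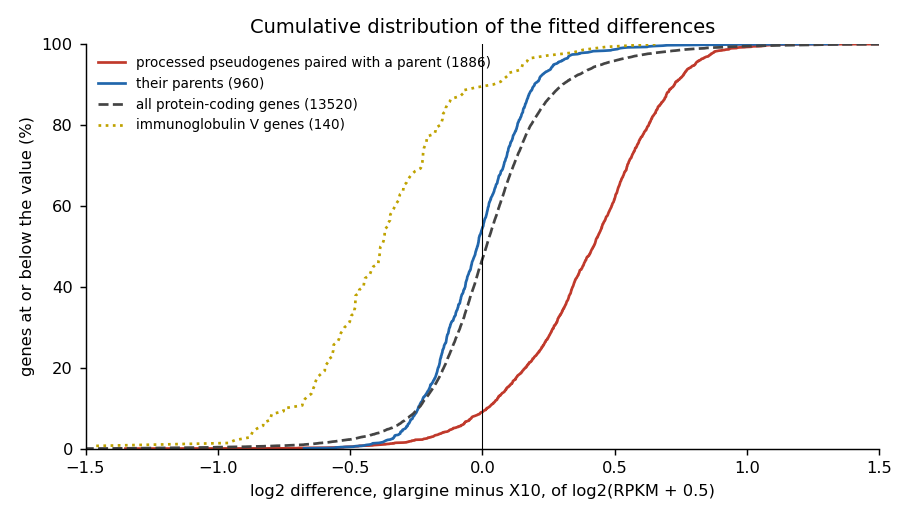
Cumulative percentage of genes against the log2 difference, glargine minus X10, for 1886 paired processed pseudogenes, their 960 parents, 13520 protein-coding genes and 140 immunoglobulin V genes. The pseudogene curve is shifted to the right, with a median of 0.42, and the curves of the parents and of the protein-coding genes cross 50% close to 0.

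Several large families are copies of ribosomal protein genes. Of all processed pseudogenes 13.6% were called, against 1.78% of all tested genes. The families below were named after their values were seen. The 26 copies of Rpl29 had a median difference of 0.54, with 25 above 0 and 9 called, while Rpl29 itself differed by 0.04 (adjusted p = 0.961). Rpl35a had 17 copies with a median of 0.65 and 9 calls, against 0.07 for the gene itself. For Rps19, with 12 copies, the median was 0.66 with 5 calls and the parent differed by 0.37 (adjusted p = 0.421). Copies of Hmgb1, a chromatin protein gene, numbered 22 and had a median of 0.44 with 5 calls, whereas the parent differed by 0.08.

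Not every family reached this size. The 54 copies of the glycolytic gene Gapdh had a median of 0.24, 46 of them above 0 and none called, and Gapdh itself had a difference of -0.16 (adjusted p = 0.894). Of the 41 copies of Rpl21, 34 were above 0 with a median of 0.20 and no call. The 16 copies of Hnrnpa3, an RNA-binding protein gene, had a median of 0.09.

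As a share of the summed RPKM of a tumor, processed pseudogenes held 5.28% at the lowest, 5.66% at the median and 7.11% at the highest in the glargine tumors. In the X10 tumors these values were 3.26%, 3.75% and 5.76%. All glargine tumors were above the X10 median and 8 X10 tumors were below all glargine tumors, but X10_95 and X10_107 lay within the glargine range. The means were 5.90 ± 0.596% (SD, n = 10) and 4.20 ± 0.974% (SD, n = 10), a difference of 1.69 percentage points (95% interval 0.924 to 2.46; two-sided permutation test, p = 4.6e-04, adjusted over 4 measures p = 0.00184). Over the 20 tumors the share went with library size (r = 0.509, permutation p = 0.0188, adjusted over 6 relations p = 0.113; rho = 0.589, permutation p = 0.005, adjusted p = 0.03; r = 0.597 without the 2 farthest tumors). Within the glargine tumors r was 0.549 and within the X10 tumors it was 0.619, with permutation p-values of 0.0614 and 0.0806, and the r values were 0.324 and 0.205 without the 2 farthest tumors. With the number of genes above 0 the share had r = -0.42 and rho = -0.48 over the 20 tumors (permutation p = 0.0552 and 0.0302, adjusted p = 0.121 and 0.0906), with r = 0.161 within glargine and -0.55 within X10. The part of these measures in the difference was not tested for the share itself, and 165 genes were called with library size in the model.

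The share was not even within the X10 group. A run of 8 tumors next to each other in mouse number, made up of the 6 tumors from X10_111 to X10_120 and the 2 IGF1 tumors with the lowest numbers, had 2.50% to 4.04%, and the other 42 tumors had 4.08% to 7.26%. This run was singled out after the values were seen. Mouse numbers follow the treatment groups, so between glargine and X10 a treatment and a stretch of numbers cannot be told apart. The run holds only a part of the X10 and IGF1 groups, and the other 8 IGF1 tumors had 4.76% to 7.13%. The part of this run in the difference between the analogues was not tested. The X10 tumors of the 4 mice with lower numbers had 4.62% to 5.76%, against 5.28% to 7.11% in the glargine tumors. Group means elsewhere were 5.13 ± 0.627% for vehicle, 5.15 ± 0.941% for insulin and 5.27 ± 1.47% for IGF1 (SD, n = 10 each). These lie between the X10 and glargine means. The means of X10 and IGF1 include the tumors of the run, and its part in this order was not tested.

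**Figure D3:**
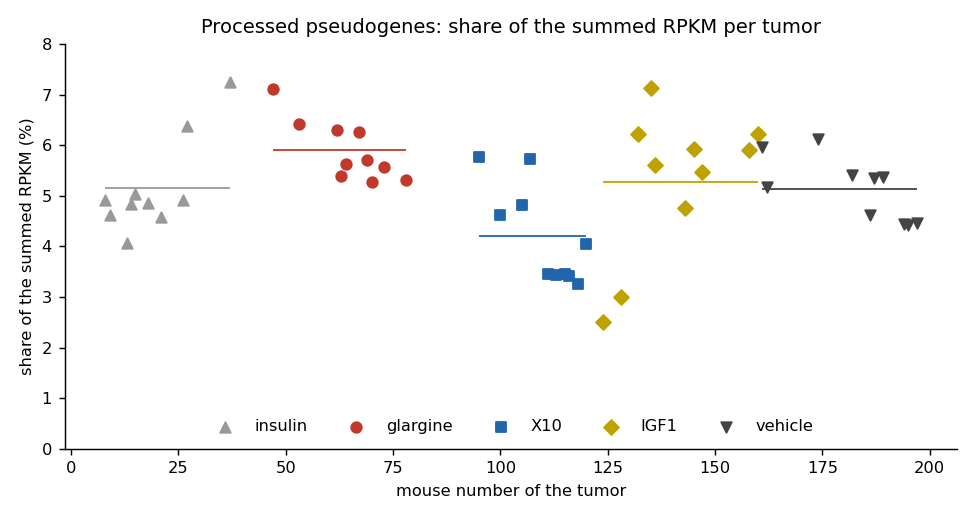
Share of processed pseudogenes in the summed RPKM of each of the 50 tumors (%) against the mouse number of the tumor, with 1 symbol per treatment group and a line at each group mean. The glargine tumors lie between 5.28% and 7.11%, and the tumors X10_111 to X10_120 lie between 3.26% and 4.04%.

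For a pair of related transcript classes the interval of the difference included 0. Cytosolic ribosomal protein genes, parents of many copies, held 5.82 ± 1.19% of the summed RPKM in glargine and 5.87 ± 1.22% in X10 (SD, n = 10 each), a difference of -0.04 percentage points (95% interval -1.18 to 1.09, permutation test p = 0.938). Transcripts of the 13 mitochondrially encoded chain genes held 3.62 ± 0.754% and 3.83 ± 0.923% (difference -0.21, 95% interval -1.01 to 0.583, permutation test p = 0.586).

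The called protein-coding genes depended on the pseudogenes in the adjustment. With all annotated pseudogenes left out, 0 of 14678 genes passed (limma, with 843 at an unadjusted p under 0.05), and limma voom on the recovered reads also called 0 of 12895 (686 unadjusted). Of the 21 called protein-coding genes, 16 share at least 100 bases at 90% identity or more with another gene, and for 11 of these the match covers at least 50% of the transcript. The share of all protein-coding genes with such a match was not determined. For the 11 called genes with a long match the origin of the reads is uncertain, as it is for the pseudogenes, while the other matches cover a smaller stretch, such as 205 of 1378 bases of Tmed1.

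Fbln5 was among the 5 called protein-coding genes without such a copy and had the highest difference of the 18 that were higher in glargine. It encodes fibulin-5, an extracellular protein of elastic fibers (chr12:101746565-101819055, minus strand). Its values were 4.82, 7.33 and 20.1 RPKM in the glargine tumors and 1.84, 3.63 and 5.80 RPKM in the X10 tumors. In 9 glargine tumors Fbln5 was above all X10 tumors (log2 1.17 ± 0.29 SE, adjusted p = 0.0263). Group means elsewhere were 7.04 RPKM in vehicle, 5.32 RPKM in insulin and 4.44 RPKM in IGF1 tumors. The call was lost when X10_111, X10_118, glargine_62, glargine_67 or glargine_69 was left out.

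The other called genes without a copy that were higher in glargine were Crat, Abhd14a and Ppp1r37. Crat encodes carnitine acetyltransferase and had 80.6 to 139 RPKM in glargine against 61.5 to 99.97 RPKM in X10 (log2 0.40, adjusted p = 0.0458). Abhd14a and Ppp1r37 were higher by 0.58 (adjusted p = 0.0371) and 0.36 (adjusted p = 0.0418) on the log2 scale. Both overlapped between the groups.

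Timm23, a channel subunit of the inner mitochondrial membrane translocase, had a mean of 153 ± 29.8 RPKM in glargine and of 89.4 ± 32.5 RPKM in X10 (SD, n = 10 each; log2 0.84 ± 0.19 SE, adjusted p = 0.0155). The single-exon gene Gm10273 matches it at 99.9% over 1121 bases and was higher by 0.78 (adjusted p = 0.0263). Mrps6, a mitochondrial ribosomal protein gene, had 32.6, 49.3 and 71.0 RPKM against 14.1, 29.4 and 45.9 RPKM (log2 0.87 ± 0.21 SE, adjusted p = 0.0187). In both genes 6 glargine tumors were above all X10 tumors. The lowest 6 X10 values of Timm23 were those of X10_111 to X10_120 (40.7 to 94.7 RPKM), and the other 4 X10 tumors had 95.6 to 149 RPKM, which reaches into the glargine values. The Mrps6 call was lost without X10_111.

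Several further protein-coding calls closely match another gene. Gm9803 (log2 0.84) matches Pam16 at 100% over 534 bases, Nutf2-ps1 (0.75) matches Nutf2, Gm12184 (0.64) matches Cdk2ap1 and Gm10073 (0.70) matches Rplp1. Acaa1b, a peroxisomal thiolase gene that matches Acaa1a at 96.6%, had a mean of 5.40 ± 1.34 RPKM in glargine and of 3.30 ± 0.721 RPKM in X10 (SD, n = 10 each; adjusted p = 0.0158). Rsph3a and Rsph3b, a pair of radial spoke protein genes that match each other, were higher by 0.38 and 0.44, and G6pd2, an intronless relative of G6pdx, by 0.63. The assembly factor gene 1110001J03Rik, also named Fmc1, was higher by 0.83 (adjusted p = 0.0242), and Tmed1, a gene of vesicle transport between the endoplasmic reticulum and the Golgi, by 0.59 (adjusted p = 0.0247). Their calls were lost in 5 and 6 of 20 fits that left out 1 tumor, with adjusted p-values (limma) up to 0.0643 for 1110001J03Rik and 0.0736 for Tmed1. The Gm10073 call was lost in 5 of 20 such fits, and those of Gm12184 and Nutf2-ps1 without X10_111.

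Only 8 genes were called higher in X10, namely mt-Tk, mt-Ti, Snrpe, Mob4, Gm20594, Gm11273, Gm16241 and Gm8814. Snrpe, a core protein gene of the spliceosome, matches the processed pseudogene Snrpert at 99.6% over 225 of 669 bases. It had 56.8, 72.3 and 102 RPKM in glargine and 54.3, 104.5 and 147.3 RPKM in X10. Its log2 difference was -0.49 ± 0.13 (SE, adjusted p = 0.0364), with 6 X10 tumors above all glargine tumors. These were X10_111 to X10_120, the run with the low pseudogene share, and the other 4 X10 tumors had 54.3 to 97.5 RPKM, close to the glargine range. The call was lost in 10 of 20 fits that left out 1 tumor and in 8 of 14 other settings. Mob4, which encodes a component of the STRIPAK phosphatase complex, had 35.0 to 45.5 RPKM against 39.7 to 60.9 RPKM (log2 -0.36 ± 0.10 SE, adjusted p = 0.0402), a call that was lost in 14 of 20 such fits and in 7 of 14 settings. Gm11273 and Gm16241 were also higher in each of X10_111 to X10_120 than in the other X10 tumors, and the part of this run in these calls was not tested. The calls of Gm11273, Gm16241 and Gm20594 were lost in 12, 15 and 13 of 20 such fits.

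Of the called genes, 2 encode mitochondrial transfer RNAs. The isoleucine gene mt-Ti had 2.17, 5.36 and 8.70 RPKM in glargine and 5.07, 10.0 and 21.2 RPKM in X10 (log2 -0.96 ± 0.27 SE, adjusted p = 0.0458). The mt-Ti call was lost in 15 of 20 fits that left out 1 tumor, with adjusted p-values (limma) up to 0.121, and in 7 of 14 settings. The lysine gene mt-Tk was at 0 in the median glargine tumor and at 0.923 RPKM in the median X10 tumor (log2 -1.11 ± 0.27 SE, adjusted p = 0.0246), which is a level of few reads on a gene of this length. It reached the minimum of 0.5 RPKM only through the X10 tumors, with a mean of 0.469 RPKM in the other 40, so a difference in this direction was favored by the choice of genes. Its call was lost in 6 of 20 such fits. Of the 18 tested genes of this class, 15 had a difference below 0, against 7182 of all 16733 tested genes. Their summed level was 234 ± 39.3 RPKM in glargine and 245 ± 104 RPKM in X10 (SD, n = 10 each), so the sum over the class differed by less than the spread between tumors. X10_95 had the highest sum with 517 RPKM, and the medians were 216 RPKM in glargine and 227 RPKM in X10.

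Genes close to the threshold in this direction were Zfp947 (log2 -0.47, adjusted p = 0.0502), Gm15195 (-1.35, adjusted p = 0.0502), 5730507C01Rik (-0.89, adjusted p = 0.0509) and Eif3m (-0.33, adjusted p = 0.0523), a subunit gene of a translation initiation factor. Zfp947 passed the test in 4 of 13 other settings, Gm15195 in 3 of 11 and 5730507C01Rik in 3 of 13. Eif3m passed in 2 of 14, under quantile normalization and upper quartile scaling. Eif3m had 59.8, 68.1 and 81.3 RPKM in glargine and 67.7, 89.0 and 121 RPKM in X10, and 6 X10 tumors were above all glargine tumors. It matches the processed pseudogene Gm7658 at 98.5% over 1125 of 1283 bases, so the origin of its reads is uncertain as well. The same holds for Zfp947, which matches Zfp995 at 93.8% over 2221 of 2872 bases. For 5730507C01Rik the closest match has 90.1% over 1262 of 2542 bases. For Zfp947, Gm15195 and 5730507C01Rik the highest 6 X10 values were those of X10_111 to X10_120. Rdh10, Psg16, Asz1 and Alox12 had adjusted p-values between 0.0601 and 0.0935. Of these, Psg16 matches another gene at 91.7% over 1918 of 4421 bases, and its highest 6 X10 values were also those of X10_111 to X10_120. Asz1 and Alox12 were tested only because of their X10 values, since their means over the other 40 tumors were 0.365 and 0.389 RPKM.

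No transcript of the receptors of these ligands was called. Insr had 5.18, 8.58 and 11.6 RPKM in glargine and 5.92, 7.92 and 12.2 RPKM in X10, with a log2 difference of 0.03 (95% interval -0.28 to 0.35). Igf1r had 3.31, 5.40 and 12.1 RPKM against 3.24, 5.57 and 13.2 RPKM (log2 0.10, 95% interval -0.31 to 0.51). The groups overlapped over nearly their whole range for both receptors, and these intervals leave room for a change of either direction.

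Igf2r, the scavenger receptor of IGF2, had a median of 281 and a highest value of 380.2 RPKM in glargine and 224 and 356 RPKM in X10, with means of 271 ± 89.2 and 235 ± 66.7 RPKM (SD, n = 10 each; log2 0.17, 95% interval -0.26 to 0.59). The growth factor gene Igf1 had 20.5, 59.3 and 164 RPKM against 6.82, 36.5 and 65.9 RPKM, and 4 glargine tumors were above all X10 tumors. Its log2 difference of 0.84 (95% interval 0.10 to 1.57) did not pass the adjustment (adjusted p = 0.313). Igf2 varied more within than between groups, from 0.866 to 3228 RPKM in glargine and from 2.07 to 1180.2 RPKM in X10 (log2 0.52, 95% interval -2.62 to 3.66).

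Of 6 tested IGF binding protein genes, none was called, against 0.238% of all tested genes that are no pseudogene, and 5 had a difference above 0. Igfbp5 had 3.14, 48.1 and 940.4 RPKM in the glargine tumors and 3.22, 12.6 and 65.9 RPKM in the X10 tumors. Its log2 difference of 2.10 (95% interval 0.72 to 3.49, adjusted p = 0.105) came with 3 glargine tumors above all X10 tumors, and it passed the test without X10_105 or without glargine_73. Igfbp6 had 4.06 to 53.6 RPKM against 7.18 to 15.6 RPKM, with 8 glargine tumors above all X10 tumors. Igfbp2 differed by 1.43 (95% interval -0.09 to 2.96), Igfbp6 by 0.76, Igfbp4 by 0.19, Igfbp7 by 0.01 and Igfbp3 by -0.15, with adjusted p-values from 0.485 to 0.995.

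**Figure D4:**
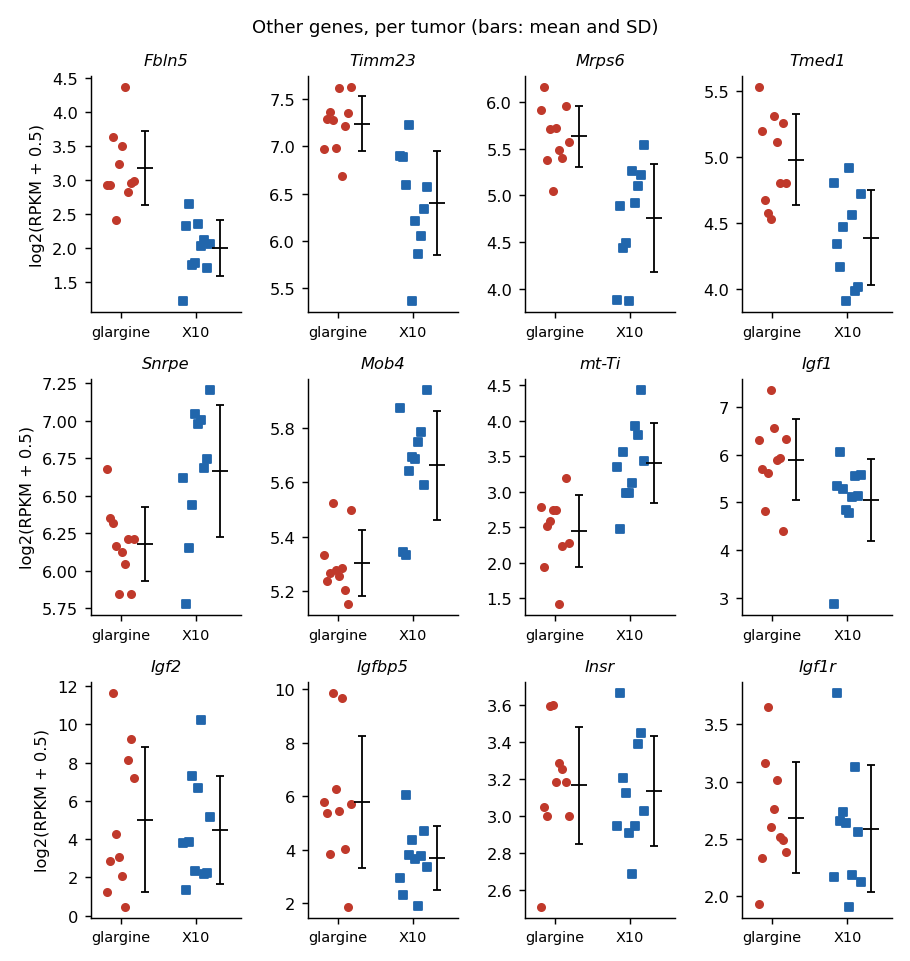
Values of 12 genes outside the pseudogenes as log2(RPKM + 0.5), with a circle for each of the 10 glargine tumors, a square for each of the 10 X10 tumors, and bars for the mean and SD; every panel has its own scale. Fbln5 is separated except for 1 tumor of each group, Mob4 and mt-Ti are higher in most X10 tumors, and Insr and Igf1r overlap.

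Over all tested genes 1.78% were called, and over the genes that are no pseudogene 0.238%. In 51 lists of pathway, process and cell type genes, the smallest adjusted p-value of the 1011 tested members was 0.0523 (limma). None of them was therefore called in either direction, a count near the second of these shares. This count depended on single tumors, since 6 members passed without X10_105 (Id3, Igfbp5 and Ndufb4 higher in glargine, Cox6c, Eif3e and Eif3m higher in X10), 3 without X10_107, 2 each without X10_95 or X10_100 and 1 each without X10_116, glargine_47, glargine_63 or glargine_73. At an unadjusted p-value under 0.05, 63 members were listed (6.23%), 35 of them higher in glargine (3.46%) and 28 higher in X10 (2.77%). Over all tested genes these shares were 9.59% and 2.06%, and with the pseudogenes left out they were 3.60% and 2.14%. The median difference over the members was 0.03. The values given for members of these lists are descriptions of genes that did not pass the adjusted test.

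Lists of signaling genes downstream of the receptors had medians near 0, but their members spread to both sides. The differences ran from -0.37 to 0.41 for PI3K, AKT, mTOR and FOXO and from -0.73 to 0.16 for RAS, RAF and ERK kinases. The 29 genes of PI3K, AKT, mTOR and FOXO had a median of 0.03, and the 18 RAS, RAF and ERK kinase genes one of 0.01; both medians were below 0 under quantile and upper quartile scaling. Akt1s1, an inhibitor of mTORC1, had a mean of 50.7 RPKM in glargine and 37.2 RPKM in X10 (log2 0.41, adjusted p = 0.159). Among the immediate early genes, Fos was at 0.77 (adjusted p = 0.286) and Egr2 at -0.67 (adjusted p = 0.274).

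Metabolic genes had list medians on both sides of 0. Of 72 nuclear genes of oxidative phosphorylation, 50 had a difference above 0, with a median of 0.08. Ndufb4, a complex I subunit gene, was at 0.46 (adjusted p = 0.0523) and Cox6c, a subunit gene of cytochrome oxidase, at -0.44 (adjusted p = 0.156). The 26 genes of glycolysis and lactate had a median of -0.12, with Ldha at -0.31 and Hk2 at -0.39, and the 23 hypoxia targets had a median of -0.14. For 38 translation factors the median was -0.10, and for 82 cytosolic ribosomal protein genes it was 0.01 (below 0 under both other scalings), with Rpl30 at -0.37 (adjusted p = 0.107).

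Genes of milk and luminal differentiation had the highest list median, closely followed by the adipocyte markers. Of 18 tested members, 16 had a difference above 0, with a median of 0.78. The milk protein gene Lalba had 0.314, 3.18 and 29.8 RPKM in glargine and 0.136, 0.348 and 4.19 RPKM in X10 (log2 1.62, 95% interval 0.58 to 2.67, adjusted p = 0.0962). The casein gene Csn1s2a differed by 2.34 (adjusted p = 0.139), and its glargine values ran from 0.272 to 192 RPKM. The 11 adipocyte markers all had a difference above 0, with a median of 0.78; their summed level was 29.7 to 866 RPKM in glargine and 24.4 to 889 RPKM in X10, with medians of 258 and 99.2 RPKM, and their part in the milk gene values was not tested.

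The EMT genes named by the study showed wide spread within each group. Of 11 mesenchymal genes, 10 had a difference above 0, with a median of 0.17, and Vim had 2683 to 6102 RPKM in glargine and 1480.1 to 5762 RPKM in X10. Of 6 epithelial genes, 4 had a difference below 0. Cdh1, which encodes E-cadherin, was at -0.53 (95% interval -1.73 to 0.68). Its highest values were 49.5 RPKM in X10_105, 41.1 RPKM in X10_111 and 35.0 RPKM in glargine_63, and X10_105 also had the lowest Vim value. Elf5, a transcription factor gene of the luminal lineage, was at 1.51 (adjusted p = 0.395). The Wnt antagonist gene Sfrp2 had 58.4 to 774 RPKM against 14.8 to 109 RPKM (log2 1.44, adjusted p = 0.104), and the matrix protease gene Mmp12 was at -1.78 (adjusted p = 0.276).

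No immune marker was called, against 0.238% of all tested genes that are no pseudogene. The 9 neutrophil markers all had a difference below 0, with a median of -0.46. The summed level of the neutrophil list had a median of 168 RPKM in glargine and 154 RPKM in X10, with highest values of 334 and 910 RPKM. The 14 macrophage markers had a median difference of 0.13. The median over 140 immunoglobulin V genes was -0.38, with 125 below 0 and none called (0 also at an unadjusted p under 0.05). It turned to 0.27 without X10_105, whose B and plasma cell markers summed to 37794 RPKM.

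**Figure D5:**
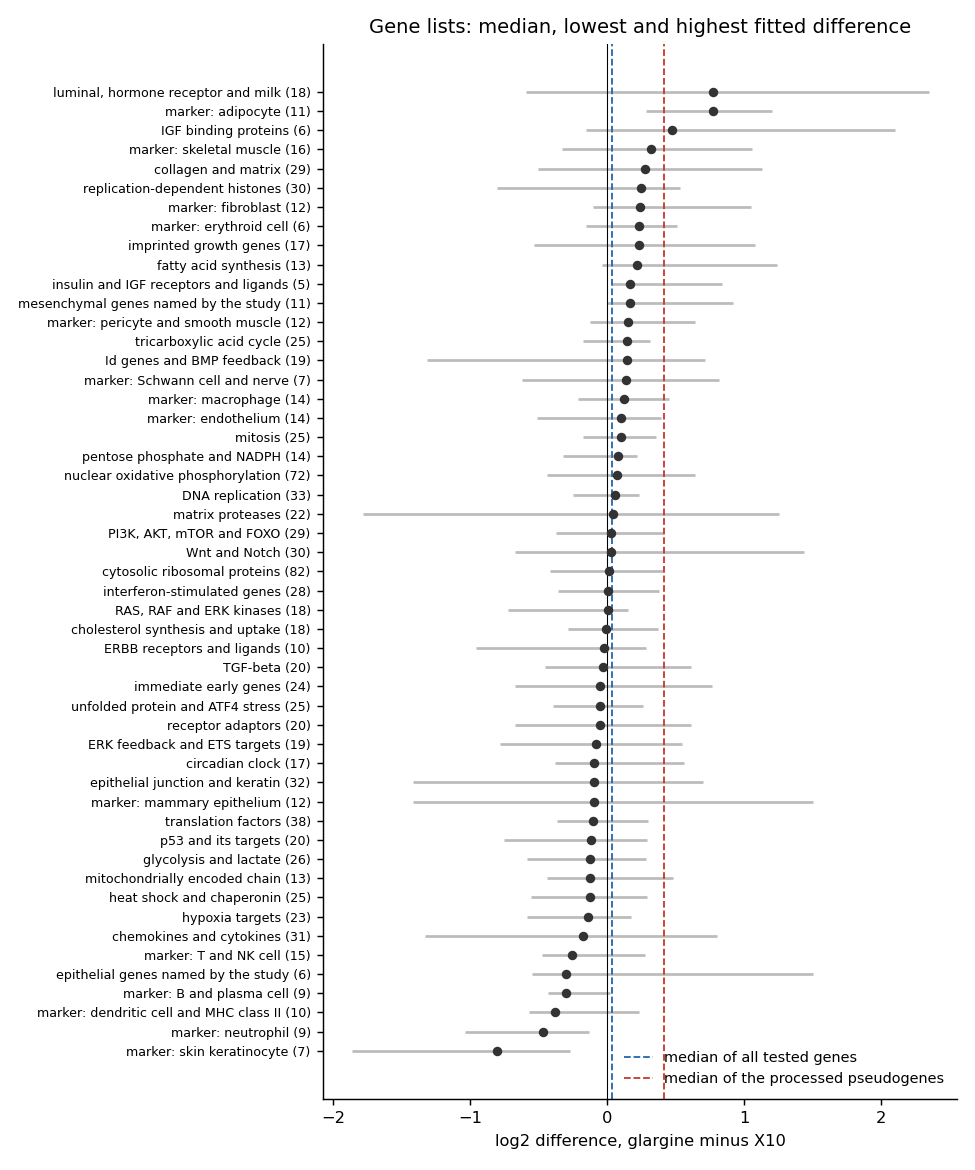
Median (point), lowest and highest (ends of the line) log2 difference, glargine minus X10, of the tested members of 51 gene lists, with the number of tested members in brackets. No member was called, and the list medians run from -0.80 for the skin keratinocyte markers to 0.78, with dashed lines at the median of all tested genes (0.04) and of the processed pseudogenes (0.41).

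Of 9 genes singled out by earlier results on the same tumors, 4 were called here, and all 4 are processed pseudogenes, a class of which 13.6% was called, against 1.78% of all tested genes. Chosen on these tumors, they are no independent evidence. Gm5391, Gm14078 and Gm5422 did not overlap between the groups, with differences of 0.75, 0.75 and 0.70, and Gm8839 was higher by 0.54. For Gm14078 the values were 78.6, 100.3 and 139 RPKM in glargine against 41.2, 65.0 and 78.2 RPKM in X10. The means were 91.6 RPKM in vehicle, 102 RPKM in insulin and 75.6 RPKM in IGF1 tumors. Id3, an inhibitor of DNA binding induced by BMP, had 79.3 to 141 RPKM against 42.4 to 252 RPKM (log2 0.71, adjusted p = 0.199), and 9 X10 tumors were below all glargine tumors. The 252 RPKM belong to X10_105, and without this tumor Id3 passed the test (log2 0.94, adjusted p = 0.0247). Hist1h2ao, Mir3473c and Pfdn5 were at 0.53, 0.38 and -0.31, and none of them passed.

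Means of the other treatments, which were not part of this comparison, are given for a pair of pseudogenes. Gm10221 had a mean of 157 RPKM in glargine, 137 RPKM in vehicle, 113.1 RPKM in insulin, 127 RPKM in IGF1 and 77.4 RPKM in X10. Gm13509 had 50.9, 51.7, 43.3, 39.2 and 29.8 RPKM in the same order. In both, X10 had the lowest of the 5 group means. No test was made of these values.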

How the data were processed

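Poly-A RNA of 50 tumors was sequenced on an Ion Proton. The authors deposited RPKM values per gene; per the labels, their processing used TopHat2 2.0.10, Bowtie2, HTSeq 0.6.1, DESeq2 1.2.10 and GRCm38. Reads left unaligned by TopHat2 went through a local Bowtie2 alignment, which ignores introns, and both sets were merged. Reads across splice junctions could thus be placed on intronless copies, and the extent of this was not tested. Gene counts came from HTSeq with default options, while the paper names DEXSeq for an RPKM table made to estimate exon expression. Which counting lies behind the deposited values was not settled here. The values were used as deposited, and 16733 of 37701 genes had a mean RPKM of at least 0.5 over all tumors. limma 3.58.1 with an intensity trend (R 4.3.3) was fitted to log2(RPKM + 0.5) with all 5 groups, the contrast was glargine minus X10, and p-values were Benjamini-Hochberg adjusted with a threshold of 0.05. Fold changes are on this scale and understate the change of low genes. Each tumor carries its own mouse number, and p-values measure the spread between these tumors.

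RPKM values of a gene are multiples of what 1 read is worth, which returned library sizes, and reads for 14637 tested genes (87.5%). limma voom on these reads was an alternative. Gene types came from GENCODE M21 (16551 tested genes matched). Processed pseudogenes were aligned to protein-coding transcripts with blastn 2.17.0, and the best match over at least 50% of the pseudogene was taken as parent. Shares of summed RPKM over tested genes were compared with two-sided permutation tests (100000 resamples) in Python 3.11.15, scipy 1.17.1. Intervals are 95%.

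The members, gene lists and tests were chosen with earlier results of these data known. Named genes were the 10 with the smallest p-values in each direction, over all genes and over protein-coding genes, up to 4 per list (the smallest p-values and the highest levels), all receptors, ligands, IGF binding proteins and EMT genes of the study, and 9 genes of earlier results. Other called genes that are no pseudogenes, and pseudogene families, were named after their values were seen. Alternatives were 12 planned settings and leaving out each of 20 tumors. Another 2 settings, voom without pseudogenes and voom with the pseudogene share as covariate, were chosen after seeing the data. The limma script was tested on simulated data. A few of the genes covered by this rule are not reported here.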

Additional observations from a re-analysis of the deposited data

Results flagged for a closer look

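In 7 of 108 groups of 10 values tested, 1 tumor lay farther from its nearest neighbor than Dixon's limit allows. Chance flags about 1 in 20 groups. X10_107 was high for a pair of related Nutf2 copies, with 15.2 RPKM of Gm10349 and 14.1 RPKM of Nutf2-ps1, which match the same parent. In glargine_53 there were 39.6 RPKM of Gm20563, in glargine_78 2.65 RPKM of Asz1, and in glargine_64 mitochondrially encoded genes held 5.36% of the summed RPKM. X10_105, rich in immunoglobulin transcripts, had 252 RPKM of Id3, and X10_95 had 6.82 RPKM of Igf1.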

How the results depend on the processing

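The share of tested genes that was called changed with the setting. Against 1.78% (1.73% higher in glargine, 0.0478% higher in X10), limma called 0.399% over all genes with a nonzero value (0.366% higher in glargine), 0.986% when library size entered the model (0.980% and 0.00598%) and 1.01% under quantile normalization (0.896% and 0.114%). limma voom on recovered reads called 0.902%, all higher in glargine and 0 higher in X10. Upper quartile scaling gave 1.12% higher in glargine. Genes higher in X10 made up 0.0275% with a mean RPKM of at least 5, 0.0777% without an intensity trend and 0.0179% with only both groups in the fit. With the pseudogenes left out, 0 genes were called by limma (843 at an unadjusted p under 0.05) and 0 by voom (686). With the processed pseudogene share in the model, 0 were called by limma (790 unadjusted) and 0 by voom (664); this covariate is built from the genes that make up most calls.

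Leaving out 1 tumor gave 0.454% to 3.45% called, 0.454% to 3.32% higher in glargine and 0 to 0.155% higher in X10. The number of calls fell to 76 without X10_111, to between 119 and 176 without X10_113, X10_115, X10_116, X10_118 or X10_120, and to between 126 and 196 without glargine_53, glargine_62, glargine_64, glargine_67, glargine_69 or glargine_73. It rose to 460, 470 and 577 without X10_105, X10_95 and X10_107. The median difference of the processed pseudogenes was 0.39 to 0.46 in these fits. The difference in pseudogene share ran from 1.56 to 1.87 percentage points, that in ribosomal protein share from -0.35 to 0.245 and that in mitochondrial share from -0.404 to 0.0172, so the last 2 changed sign. The cause of these changes was not tested. No paired analysis was possible because mouse numbers are not shared between the groups.

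Depth is known only from recovered reads, and near-identical copies limit which gene a read belongs to.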
